A study of Mus musculus with 53 samples.

Results

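The RNA response of mouse embryonic fibroblasts to decitabine (DAC) was compared between cells labelled as a knockout of Anp32e (KO) and wild-type cells (WT). The quantity described is the response in KO, which is KO DAC minus KO DMSO, minus the response in WT, which is WT DAC minus WT DMSO. It is called the response difference here and was computed per gene on log2(FPKM + 1), where FPKM is fragments per kilobase of gene, scaled to the library total. A positive value means that the change with DAC was more positive in KO than in WT. All 10 libraries of the DAC experiment entered: 3 KO DAC, 2 KO DMSO, 3 WT DAC and 2 WT DMSO, out of 53 samples in the series. In all, 16434 genes with at least 1 FPKM in at least 2 libraries were tested. The labels give the cells as embryonic fibroblasts, the genotype, and DAC or its solvent DMSO. The knockout allele, the dose and duration of DAC and the number of embryos behind the cultures are not described there. The labels call the libraries biological replicates without naming separate cultures, so the p-values measure the spread between these libraries. For an independent look at the genotypes, 3 KO and 3 WT libraries given a non-targeting (NT) siRNA were used from a second table, in RPKM, the same unit counted in reads.

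Decitabine is a cytidine analogue that is built into DNA in S phase and traps DNA methyltransferases, so that methylation is lost over cell divisions. Genes silenced by promoter methylation, among them germline genes, can then be transcribed. RNA from derepressed repeats is sensed in the cytosol and starts a type I interferon response, and the trapped enzyme is a DNA lesion that p53 responds to. ANP32E is a histone chaperone that takes the variant H2A.Z off chromatin, and loss of DNA methylation and gain of H2A.Z are known to go together at many promoters.

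Anp32e itself (ENSMUSG00000015749, chr3:95929245-95947387, GRCm38.p6) had 6.34, 7.05 and 7.48 FPKM in KO DAC and 5.31 and 4.87 in KO DMSO, against 17.2, 15.8 and 14.05 in WT DAC and 14.5 and 14.6 in WT DMSO. The KO libraries all lay below the WT libraries, and Anp32e rose with DAC in KO by 0.38, but transcripts of the gene were still counted in KO, and which part of the gene the allele removes is not known here. Its response difference was 0.29 ± 0.13 (SE, adjusted p = 0.156). H2afz, which encodes the main H2A.Z isoform, had a response difference of 0.40 ± 0.23 (SE, adjusted p = 0.256), and H2afv, which encodes the other isoform, of -0.17 ± 0.14 (SE, adjusted p = 0.431). None of these response differences passed the threshold of an adjusted p under 0.05 that defines a call throughout. Scaling totals were 27503472 to 36910532 reads per library, so that 1 read in a gene of 1 kb was worth 0.0271 to 0.0364 FPKM. Libraries of a group correlated at 0.979 to 0.987 across genes. KO DAC replicate 1 and WT DAC replicate 3 stood slightly apart from the other libraries of their groups.

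The KO and WT libraries differed in more than Anp32e. On the first principal component, which held 46.7% of the variance, the KO DMSO libraries scored 66.8 and 66.2 and the other 8 libraries between -29.9 and -1.88. KO libraries carried Y-linked RNA and WT libraries did not: Eif2s3y, a Y-linked translation factor gene, had 7.98, 6.64 and 6.50 FPKM in KO DAC and 3.37 and 3.11 in KO DMSO, against 0, 0 and 0.0375 in WT DAC and 0 and 0.0305 in WT DMSO. Summed over 12 markers of mesothelium, the lining of body cavities, the level was 124 to 145 FPKM in KO DAC and 1090 to 1124 FPKM in KO DMSO libraries, against 43.6 to 57.8 FPKM in WT DAC and 10.3 to 12.3 FPKM in WT DMSO libraries. All 12 of these markers were above 0 in the KO DMSO libraries, and 2 of them, Gpm6a and Lrrn4, were listed at 0 in both WT DMSO libraries. The sum over 10 fibroblast markers was 1794 to 1980 FPKM in KO DAC, 2024 to 2061 FPKM in KO DMSO, 2168 to 2301 FPKM in WT DAC and 3275 to 3397 FPKM in WT DMSO libraries. In bulk RNA, fewer cells of a type and less RNA per cell cannot be told apart, and the sex and cell make-up of the cultures cannot be told apart from the genotype.

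The response differed between genotypes in 3960 of 16434 genes (24.1%), with the response difference called higher in 2032 genes (12.4%) and lower in 1928 genes (11.7%). Within KO, DAC changed more genes than within WT. In KO 3889 genes rose (23.7%) and 3542 fell (21.6%), together 45.2%. In WT 2384 rose (14.5%) and 2274 fell (13.8%), together 28.3%. Counts of list members that rose or fell with DAC, given below, are to be read beside these shares. Genes were sorted by the calls in KO, in WT and of the response difference. A shared response was called in the same direction in both genotypes, a KO-limited response was called in KO and not in WT with the response difference also called, a WT-limited response was the reverse, and an opposite response was called in both genotypes in opposite directions. Of all tested genes, 2732 were shared, 1959 KO-limited, 659 WT-limited and 471 opposite. Another 2269 genes were called in KO and 796 in WT while the response difference was not called, and these were put in no limited class. In 91 genes the response difference alone was called, and 7457 genes were not called at all. Without KO DMSO replicate 1, which left a single KO DMSO library whose spread was taken from the other groups, the counts were 1232 higher and 1044 lower. Without both libraries that stood apart they were 2484 higher and 2316 lower.

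Shared responses were themselves of 3 kinds. In 1952 of the 2732 shared genes the response difference was not called, with 1145 genes up and 807 down in both genotypes. In 627 the response was larger in KO, and in 153 it was larger in WT. KO-limited responses were down in 1099 genes and up in 860, and WT-limited responses were down in 422 and up in 237. Of the 471 opposite genes, 244 fell in KO and rose in WT, and 227 rose in KO and fell in WT.

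The starting level separated these classes. The genotypes differed by 2-fold or more in DMSO in 1804 genes, by 1.2- to 2-fold in 7512 and by less than 1.2-fold, called equal here, in 7118. The response difference was called in 1411 (78.2%) of the genes 2-fold or more apart, in 2090 (27.8%) of those in between and in 459 (6.45%) of the equal genes. KO-limited responses made up 39.0% of the genes 2-fold or more apart and 3.33% of the equal genes, and opposite responses 15.4% and 0.140%. Shared responses made up 13.9% and 17.8%. The DMSO libraries enter both the split and the response difference, so an extreme DMSO value moves a gene in both at once, and these shares are a description with no test. At the 2-fold edge, a DMSO difference of 1 on the log2 scale, Bvht at -1.0001 lay just inside and Txndc15 at -0.99992 just outside. At the 1.2-fold edge Chd1 at 0.263027 lay just inside the equal genes and Hdac3 at 0.263084 just outside.

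**Figure D1:**
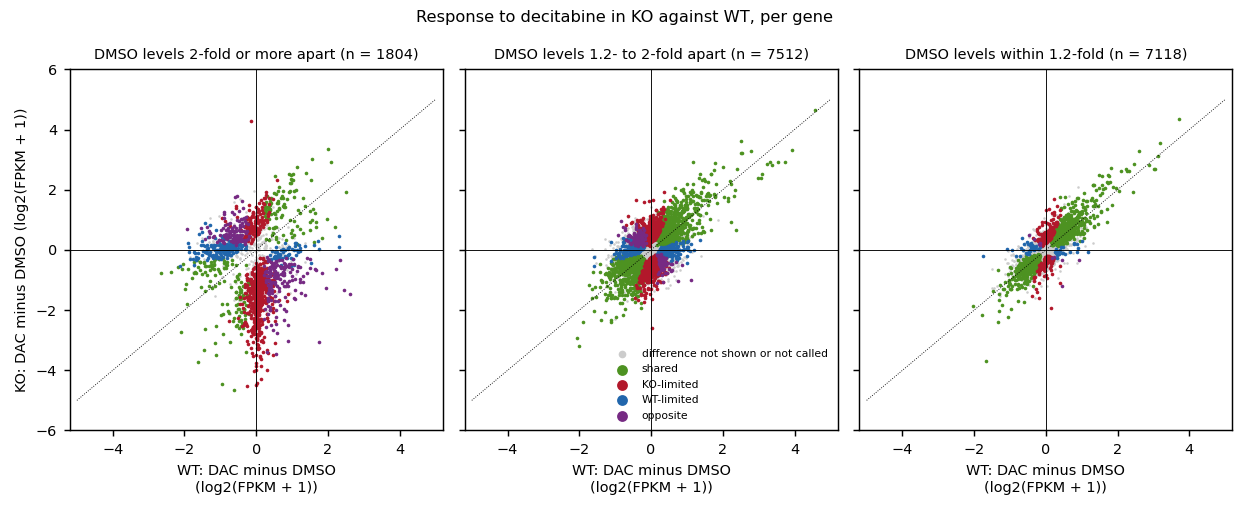
Response to DAC in WT (horizontal axis) and KO (vertical axis), each as a difference in log2(FPKM + 1), for 1804 genes 2-fold or more apart in DMSO, 7512 genes 1.2- to 2-fold apart and 7118 equal genes; each point is a gene, coloured by class, and the dotted line marks equal responses. Genes with a called response difference number 1411 (78.2%) in the panel 2-fold or more apart, 2090 (27.8%) in the panel in between and 459 (6.45%) in the panel of equal genes.

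Genes that started apart ended closer together, again as a description that shares the DMSO libraries. Of 1040 genes that were 2-fold or more higher in KO DMSO than in WT DMSO, the response difference was called lower in 873 (83.9%) and higher in 10. The median KO minus WT difference in these 1040 genes was 0.32 in DAC and 1.58 in DMSO on the log2 scale, and the gap was smaller in DAC in 1016 of them. Their median response was -1.19 in KO and 0.10 in WT. Of 764 genes that were 2-fold or more lower in KO DMSO, the response difference was called higher in 525 (68.7%) and lower in 3. Here the median KO minus WT difference was -0.46 in DAC and -1.32 in DMSO, the median response was 0.40 in KO and -0.51 in WT, and the gap was smaller in DAC in 743 genes. In DAC, 906 of the 1040 genes and 644 of the 764 were under 2-fold apart. A gene could pass the filter through the 2 KO DMSO libraries alone, where it was high, and could then only fall in KO. How many of the 1040 did so was not counted. The 873 is thus in part set by the filter, as are the shares above for genes 2-fold or more apart. With a filter at 5 FPKM the KO-limited genes 2-fold or more apart numbered 371, against 704.

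The NT siRNA libraries, which share no library with the response difference, gave smaller median gaps for the same genes. These genes were picked by their DMSO gap, so a smaller gap in any other libraries follows in part from that choice. Of the 488 genes higher in KO DMSO that were also tested there, the median KO minus WT difference was 0.50 on log2(RPKM + 1), with 322 called higher and 51 lower in KO. Of the 508 lower in KO DMSO the median was -0.22, with 113 called higher and 258 lower. Genes described below went both ways, and the ones named here are examples and not a tally. The DMSO gap kept its direction in NT libraries for C3, Irf5, Igfbp3, Dcn, Lrrn4, Phf11d, Col5a2, Myl9 and Lox, among others. The NT difference was called the other way for Sfrp2, Ccn2, Cxcl12, Vcan and Vim, and was not called for Cdkn1a. Over all 12668 genes tested in that table, 23.7% were called higher and 40.4% lower in KO. Sorting by the NT libraries instead of DMSO, 242 genes were 2-fold or more higher in KO, and the response difference was called lower in 55.4% and higher in 17.4% of them. Their median response difference was -0.81. The 369 genes 2-fold or more lower in KO NT libraries had 21.7% called higher and 10.6% lower, with a median of 0.08. In the 5817 genes equal in NT libraries 13.2% were called higher and 8.39% lower.

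The most negative response differences belonged to genes that were high in KO DMSO libraries and far lower in WT DMSO libraries. Plxna4 (ENSMUSG00000029765, chr6:32144543-32588192), which encodes a semaphorin receptor, had 1.22, 1.30 and 1.53 FPKM in KO DAC and 49.2 and 49.8 in KO DMSO, against 0.0144, 0.0138 and 0.167 in WT DAC and 0.0506 and 0.0345 in WT DMSO. Its KO DMSO libraries were far above the other 8, and KO DAC libraries kept only a small part of that level. The WT libraries had at most 0.167 FPKM, so a fall in WT could not have been seen. The response difference was -4.45 ± 0.14 (SE, adjusted p = 7.81e-07), the response in KO -4.43 ± 0.10 and in WT 0.03 ± 0.10, which was not called. Fras1, which encodes a basement membrane protein, had 0.891, 1.01 and 1.12 FPKM in KO DAC and 48.7 and 50.4 in KO DMSO, against 0.279, 0.229 and 0.388 in WT DAC and 0.963 and 1.01 in WT DMSO. Its response was larger in KO than in WT, at -4.65 and -0.62, with a difference of -4.04 ± 0.12 (SE, adjusted p = 7.81e-07). Igfbp3, which encodes a binding protein of insulin-like growth factors, had 1.86, 1.98 and 2.54 FPKM in KO DAC and 68.2 and 66.5 in KO DMSO, against 2.98, 3.25 and 3.29 in WT DAC and 7.22 and 6.84 in WT DMSO. Again the KO DMSO libraries alone stood high, and the difference was -3.51 ± 0.13 (SE, adjusted p = 1.44e-06).

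The mesothelial markers showed this pattern as a list. Of 12 tested, the response difference was called lower in 10 and higher in none, against 11.7% and 12.4% over all tested genes. Its median was -3.48, against 0.04 over all genes. Of the 12 markers, 5 averaged at least 1 FPKM in WT DAC and 3 in WT DMSO libraries. The others were low in WT and were tested mainly through KO libraries, where they were high. The count called lower is thus in part set by the filter and is not read as a result. In KO 9 fell and 2 rose, with a median response of -3.30, and in WT 5 rose and none fell, with a median of 0.39. Podxl, which encodes a sialomucin of the mesothelial surface, had 24.1, 24.9 and 25.9 FPKM in KO DAC and 290.1 and 284 in KO DMSO, against 2.71, 2.43 and 4.15 in WT DAC and 1.62 and 1.86 in WT DMSO. Lrrn4, which encodes a leucine-rich membrane protein, had 1.61, 2.34 and 2.09 FPKM in KO DAC and 54.99 and 61.5 in KO DMSO, against 0.0333, 0.0477 and 0.252 in WT DAC and 0 and 0 in WT DMSO. Aldh1a2, which encodes a retinoic acid synthesising enzyme, had 1.44, 1.19 and 1.53 FPKM in KO DAC and 37.9 and 36.4 in KO DMSO, against 0.369, 0.639 and 0.358 in WT DAC and 0.144 and 0.196 in WT DMSO. In all 3 genes the KO DAC libraries lay between the KO DMSO and the WT DAC libraries, with no overlap. The exceptions were the keratin genes Krt8 and Krt19, which rose in both genotypes and whose response difference was not called, at 0.41 and 0.72. Msln, which encodes mesothelin, was WT-limited, with 21.1, 25.04 and 23.6 FPKM in KO DAC and 19.95 and 23.2 in KO DMSO, against 34.4, 38.5 and 26.6 in WT DAC and 6.80 and 5.02 in WT DMSO. Its response difference of -2.20 ± 0.23 (SE, adjusted p = 2.28e-04) came from a rise in WT of 2.30, while the KO response of 0.11 was not called. In NT libraries all 11 markers tested were called higher in KO, against 23.7% of all genes tested there. Their median was 2.96, so the genotype difference of these markers was present there too.

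Among genes 2-fold or more apart, 278 moved in opposite directions. C3 (ENSMUSG00000024164, chr17:57203967-57228136), the central complement gene, had 7.59, 8.77 and 10.4 FPKM in KO DAC and 79.4 and 83.8 in KO DMSO, against 11.2, 11.6 and 12.4 in WT DAC and 2.78 and 2.76 in WT DMSO. The DMSO libraries of the genotypes were far apart, and after DAC both genotypes lay within 7.59 to 12.4 FPKM. Its response difference was -4.83 ± 0.15 (SE, adjusted p = 7.81e-07). H2-Q6, a non-classical MHC class I gene whose reads may be shared with near-identical copies, had 18.4, 23.8 and 22.1 FPKM in KO DAC and 57.6 and 64.2 in KO DMSO, against 33.1, 33.3 and 37.9 in WT DAC and 3.44 and 6.61 in WT DMSO, with a response difference of -4.09 ± 0.29 (SE, adjusted p = 2.57e-05). Irf5, which encodes an interferon regulatory factor, had 3.87, 4.17 and 4.78 FPKM in KO DAC and 23.2 and 28.3 in KO DMSO, against 2.45, 2.17 and 2.15 in WT DAC and 0.775 and 1.01 in WT DMSO. In each of the 3 genes the KO libraries fell and the WT libraries rose.

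The converse, a rise in KO and a fall in WT, was found in 115 genes of this kind. Penk (ENSMUSG00000045573, chr4:4133536-4138815), which encodes the enkephalin precursor, had 9.72, 11.7 and 12.8 FPKM in KO DAC and 7.52 and 5.84 in KO DMSO, against 23.9, 25.8 and 28.5 in WT DAC and 86.8 and 121 in WT DMSO, and its response difference was 2.63 ± 0.23 (SE, adjusted p = 8.64e-05). Aqp1 (chr6:55336299-55348555), a water channel gene, had 54.01, 54.4 and 54.8 FPKM in KO DAC and 15.4 and 15.6 in KO DMSO, against 32.1, 35.1 and 34.8 in WT DAC and 49.97 and 54.6 in WT DMSO. Unlike Penk, it ended higher in KO DAC than in WT DAC libraries, with a response difference of 2.35 ± 0.08 (SE, adjusted p = 9.42e-07). Npnt, which encodes the integrin ligand nephronectin, had 14.1, 14.6 and 14.5 FPKM in KO DAC and 3.44 and 3.40 in KO DMSO, against 29.9, 31.3 and 29.4 in WT DAC and 42.02 and 45.97 in WT DMSO. Vcan, which encodes the matrix proteoglycan versican, had 34.01, 32.6 and 31.96 FPKM in KO DAC and 13.7 and 12.9 in KO DMSO, against 40.1, 41.2 and 44.1 in WT DAC and 72.2 and 85.1 in WT DMSO, and Vim, which encodes the intermediate filament protein vimentin, had 459, 525 and 501 FPKM in KO DAC and 236 and 240.2 in KO DMSO, against 614, 617 and 513 in WT DAC and 729.6 and 725 in WT DMSO. For Npnt and Vcan the KO DAC libraries stayed below the WT DAC libraries and for Vim the 2 groups overlapped, and no libraries of the DAC and DMSO groups overlapped within a genotype. The response differences were 2.33 ± 0.08 (SE, adjusted p = 9.42e-07) for Npnt, 2.14 ± 0.11 (SE, adjusted p = 5.29e-06) for Vcan and 1.38 ± 0.14 (SE, adjusted p = 1.48e-04) for Vim.

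WT-limited genes that started 2-fold or more apart numbered 223. Sprr1a, which encodes a small proline-rich protein of the cornified envelope, had 20.3, 20.8 and 23.1 FPKM in KO DAC and 15.1 and 15.5 in KO DMSO, against 4.37, 7.18 and 4.18 in WT DAC and 0.243 and 0.237 in WT DMSO. P2rx7, an ATP-gated channel gene, had 5.43, 5.69 and 5.24 FPKM in KO DAC and 5.002 and 4.60 in KO DMSO, against 3.17, 3.61 and 3.34 in WT DAC and 0.422 and 0.423 in WT DMSO. Both rose in WT, where the DAC libraries stayed below all KO libraries, and the KO responses were not called. Downward, Sobp, which encodes a nuclear zinc finger protein, had 0.224, 0.110 and 0.270 FPKM in KO DAC and 0.118 and 0.117 in KO DMSO, against 2.29, 2.37 and 3.47 in WT DAC and 11.3 and 13.7 in WT DMSO, and Deptor, which encodes an inhibitor of mTOR kinase, had 2.37, 2.14 and 1.80 FPKM in KO DAC and 1.89 and 2.41 in KO DMSO, against 2.28, 2.09 and 2.04 in WT DAC and 7.63 and 7.95 in WT DMSO. Sobp was at most 0.270 FPKM in all KO libraries, so a fall in KO could not have been seen. For Deptor the WT DAC libraries fell to the level of the KO libraries. The response differences were -1.85 ± 0.25 (SE, adjusted p = 8.72e-04) for Sprr1a, -1.47 ± 0.11 (SE, adjusted p = 3.25e-05) for P2rx7, 1.97 ± 0.21 (SE, adjusted p = 2.36e-04) for Sobp and 1.47 ± 0.15 (SE, adjusted p = 1.76e-04) for Deptor. Sfrp2, which encodes a secreted Wnt antagonist, fell in both genotypes and more in WT, with 3.55, 5.22 and 5.22 FPKM in KO DAC and 8.24 and 8.20 in KO DMSO, against 29.5, 32.1 and 36.1 in WT DAC and 167 and 182 in WT DMSO.

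**Figure D2:**
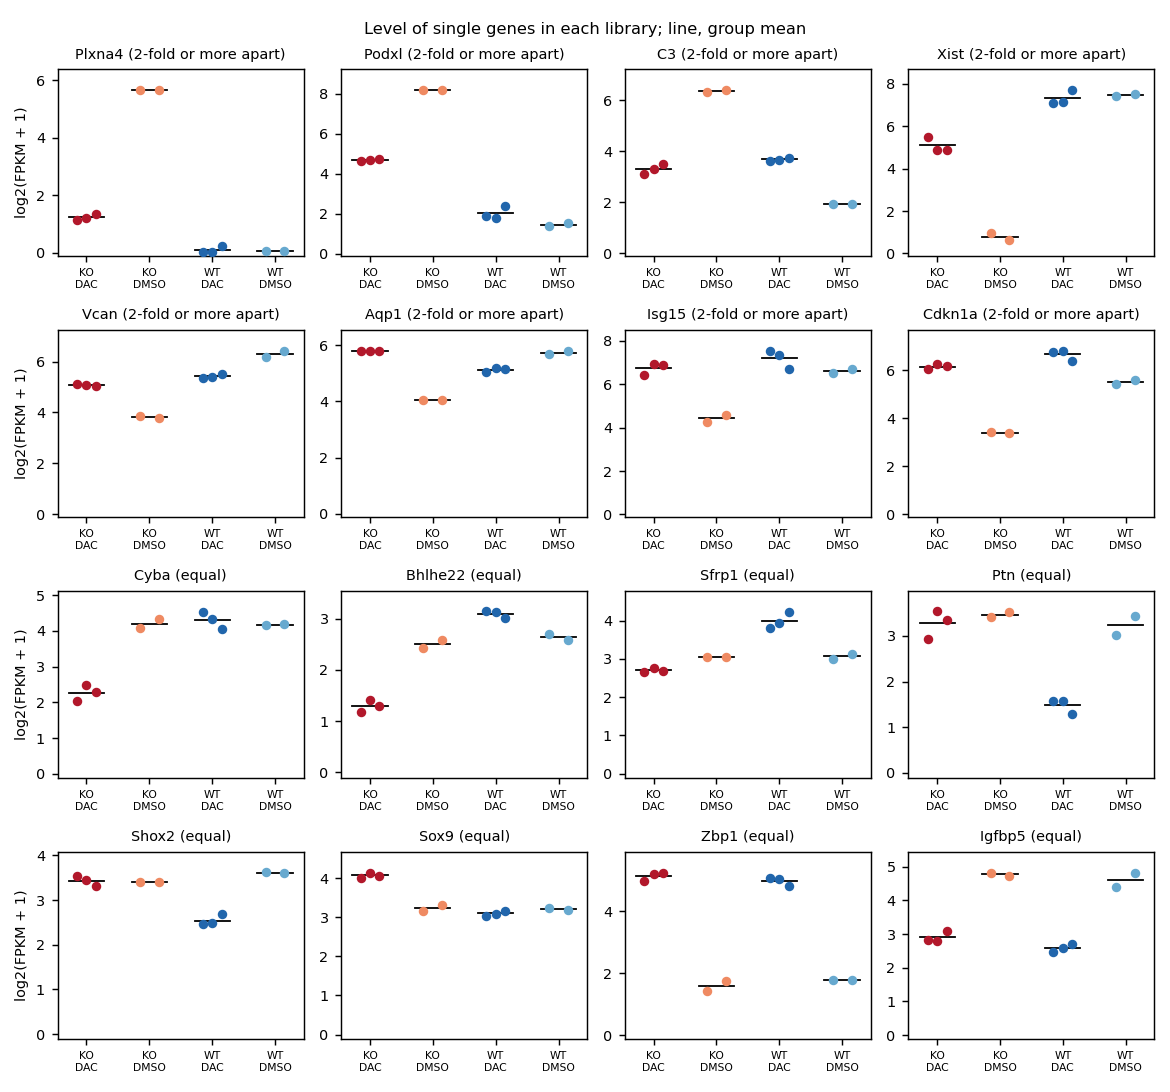
Levels of 16 genes in log2(FPKM + 1), each point 1 library and each line the group mean, in the order KO DAC (3), KO DMSO (2), WT DAC (3) and WT DMSO (2). Plxna4, Podxl and C3 have their highest points in KO DMSO, Cyba, Bhlhe22, Sfrp1, Ptn, Shox2 and Sox9 have DMSO groups at about the same level and part in DAC, and Zbp1 and Igfbp5 move alike in both genotypes.

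Equal starting levels left fewer genes, with 10 opposite responses. Bhlhe22 (ENSMUSG00000025128, chr3:18054325-18057514), which encodes a basic helix-loop-helix repressor, had 1.27, 1.65 and 1.45 FPKM in KO DAC and 4.40 and 4.98 in KO DMSO, against 7.82, 7.73 and 7.04 in WT DAC and 5.54 and 5.03 in WT DMSO. Its response was -1.22 in KO and 0.44 in WT, a response difference of -1.66 ± 0.13 (SE, adjusted p = 4.67e-05). Sfrp1 (chr8:23411383-23449632), a secreted Wnt antagonist gene, had 5.28, 5.83 and 5.47 FPKM in KO DAC and 7.27 and 7.31 in KO DMSO, against 12.9, 14.3 and 17.8 in WT DAC and 7.01 and 7.78 in WT DMSO. Cx3cl1, which encodes the membrane-bound chemokine fractalkine, had 14.1, 15.1 and 15.8 FPKM in KO DAC and 18.7 and 19.1 in KO DMSO, against 29.2, 28.6 and 29.8 in WT DAC and 21.2 and 20.8 in WT DMSO. In all 3 genes the DMSO libraries of the genotypes lay close together, and all KO DAC libraries were below and all WT DAC libraries above them. The response differences of the other two were -1.27 ± 0.17 (SE, adjusted p = 7.74e-04) for Sfrp1 and -0.77 ± 0.08 (SE, adjusted p = 1.49e-04) for Cx3cl1. Igf2bp3, which encodes an RNA-binding protein of fetal tissue, rose in KO and fell in WT, with 10.8, 10.1 and 10.6 FPKM in KO DAC and 8.41 and 7.44 in KO DMSO, against 6.82, 6.64 and 7.44 in WT DAC and 9.49 and 8.73 in WT DMSO. Tead2, which encodes a partner of the co-activator YAP, did the same over smaller steps. The response differences were 0.71 ± 0.11 (SE, adjusted p = 0.00145) for Igf2bp3 and 0.40 ± 0.06 (SE, adjusted p = 0.00176) for Tead2.

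KO-limited genes with equal DMSO levels numbered 237, with 142 up and 95 down. Cyba (ENSMUSG00000006519, chr8:122424771-122432940), which encodes a subunit of the NADPH oxidase, had 3.13, 4.64 and 3.86 FPKM in KO DAC and 15.8 and 18.96 in KO DMSO, against 22.2, 19 and 15.6 in WT DAC and 16.9 and 17.1 in WT DMSO. The KO DAC libraries were below all others, and the response difference was -2.05 ± 0.23 (SE, adjusted p = 3.26e-04). The zinc finger genes Zfp993 and Zfp991 fell in KO, with responses of -1.54 and -1.30, but reads of these related genes may be shared, so the level of each is uncertain. Upward, Sox9 (chr11:112782210-112787757), which encodes a transcription factor of cartilage, had 15.1, 16.6 and 15.7 FPKM in KO DAC and 7.97 and 8.90 in KO DMSO, against 7.23, 7.49 and 7.93 in WT DAC and 8.34 and 8.16 in WT DMSO. Fut8, which encodes a fucosyltransferase of N-glycans, had 11.8, 10.6 and 10.1 FPKM in KO DAC and 6.02 and 5.88 in KO DMSO, against 5.70, 6.67 and 5.83 in WT DAC and 7.31 and 6.84 in WT DMSO, and Qpct, a glutaminyl cyclase gene, had 5.55, 5.32 and 5.41 FPKM in KO DAC and 3.25 and 2.76 in KO DMSO, against 3.02, 3.13 and 2.56 in WT DAC and 3.39 and 3.96 in WT DMSO. All 3 were highest in the KO DAC libraries, with response differences of 0.95 ± 0.10 (SE, adjusted p = 1.75e-04) for Sox9, 0.96 ± 0.12 (SE, adjusted p = 5.69e-04) for Fut8 and 0.94 ± 0.13 (SE, adjusted p = 0.00124) for Qpct. Uhrf1, which encodes the protein that recruits DNMT1 to replicated DNA, was also of this kind, with 53.98, 51.2 and 52.3 FPKM in KO DAC and 36.5 and 34.6 in KO DMSO, against 38.9, 35.4 and 36.1 in WT DAC and 36.2 and 35.2 in WT DMSO and a response difference of 0.51 ± 0.08 (SE, adjusted p = 0.00177). The KO minus WT difference in NT libraries was -1.93 for Zfp993, -2.03 for Zfp991 and -0.69 for Cyba. It was 0.62 for Sox9, -0.02 for Fut8, 0.39 for Qpct and 0.41 for Uhrf1.

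WT-limited genes with equal DMSO levels numbered 62. Ptn (ENSMUSG00000029838, chr6:36714924-36810179), which encodes the growth factor pleiotrophin, had 6.65, 10.6 and 9.20 FPKM in KO DAC and 9.64 and 10.4 in KO DMSO, against 1.97, 1.99 and 1.45 in WT DAC and 7.15 and 9.78 in WT DMSO. Shox2, which encodes a homeobox factor of limb growth, had 10.7, 9.88 and 8.99 FPKM in KO DAC and 9.62 and 9.53 in KO DMSO, against 4.50, 4.58 and 5.40 in WT DAC and 11.3 and 11.3 in WT DMSO. Both fell in WT, and their KO responses were not called, with response differences of 1.56 ± 0.26 (SE, adjusted p = 0.00315) for Ptn and 1.11 ± 0.12 (SE, adjusted p = 2.92e-04) for Shox2. Equal levels in DMSO did not carry over to the NT libraries for Ptn, where KO was higher by 3.70, nor for Bhlhe22, where KO was lower, at -1.74. They did not for Shox2 either, where KO was higher by 1.06. Mfap5, which encodes a microfibril protein, had 2.90, 3.01 and 2.78 FPKM in KO DAC and 3.31 and 2.86 in KO DMSO, against 6.57, 6.50 and 5.91 in WT DAC and 3.17 and 2.89 in WT DMSO, and Nfkbia, which encodes the NF-kappaB inhibitor IkBa, had 26.1, 29.7 and 34.7 FPKM in KO DAC and 32.3 and 33.1 in KO DMSO, against 39.8, 42.1 and 41.1 in WT DAC and 28.6 and 27.6 in WT DMSO. These rose in WT, with response differences of -0.93 ± 0.11 (SE, adjusted p = 5.27e-04) for Mfap5 and -0.65 ± 0.14 (SE, adjusted p = 0.00984) for Nfkbia. Their KO minus WT differences in NT libraries were -0.38 and 0.02.

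Some genes with equal DMSO levels moved the same way in both genotypes by unequal amounts. Pcp4l1, which encodes a small calmodulin-binding protein, had 1.03, 1.22 and 0.807 FPKM in KO DAC and 24.3 and 25.7 in KO DMSO, against 5.70, 6.79 and 5.09 in WT DAC and 18.9 and 23.05 in WT DMSO. Col3a1, the collagen III gene, had 19.2, 24.1 and 26.3 FPKM in KO DAC and 111 and 112 in KO DMSO, against 47.4, 52.3 and 52.96 in WT DAC and 96.8 and 117 in WT DMSO, and Adamts2, which encodes a protease that trims procollagen, had 2.01, 2.35 and 2.41 FPKM in KO DAC and 10.05 and 9.78 in KO DMSO, against 5.27, 5.24 and 5.58 in WT DAC and 7.96 and 9.47 in WT DMSO. All 3 fell in both genotypes and further in KO, with response differences of -2.01 ± 0.18 (SE, adjusted p = 1.04e-04) for Pcp4l1, -1.18 ± 0.18 (SE, adjusted p = 0.00188) for Col3a1 and -1.14 ± 0.12 (SE, adjusted p = 2.46e-04) for Adamts2. Ripk3, which encodes a kinase of necroptosis, rose in both and further in KO, with 22.4, 23.97 and 20.8 FPKM in KO DAC and 7.78 and 8.35 in KO DMSO, against 12.8, 11.9 and 11 in WT DAC and 8.86 and 8.30 in WT DMSO. Its response difference was 0.94 ± 0.11 (SE, adjusted p = 5.14e-04).

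The genes with a shared response and no call of the response difference numbered 1952, of which 1130 had equal DMSO levels. Zbp1, a sensor of Z-form nucleic acids, had 30.7, 35.6 and 36.96 FPKM in KO DAC and 1.71 and 2.36 in KO DMSO, against 32.3, 31.7 and 26.9 in WT DAC and 2.48 and 2.44 in WT DMSO. It rose by 3.55 ± 0.12 in KO and 3.17 ± 0.12 in WT, and the difference of 0.38 ± 0.17 (SE, adjusted p = 0.147) was not called. Atg9b, an autophagy gene, rose by 2.83 in KO and 2.89 in WT. Ly6a, which encodes the surface antigen Sca-1, rose by 2.85 in KO and 2.47 in WT. Downward, Igfbp5, which encodes a binding protein of insulin-like growth factors, had 6.14, 5.96 and 7.52 FPKM in KO DAC and 27.2 and 25.6 in KO DMSO, against 4.50, 4.98 and 5.46 in WT DAC and 20.2 and 27.3 in WT DMSO. Dhrs3, which encodes a retinaldehyde reductase, fell, with responses of -1.37 in KO and -1.48 in WT. The equal start did not carry over to NT libraries for Ly6a, Igfbp5 and Dhrs3, where KO was higher by 1.18, 2.24 and 1.06. Zbp1 and Atg9b were not tested there.

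Equal response did not require equal start. Of the genes 2-fold or more apart, 57 had a shared response with no call of the difference. Lox, which encodes the enzyme that crosslinks collagen, had 65.5, 67.4 and 64.7 FPKM in KO DAC and 169.8 and 170.4 in KO DMSO, against 136, 139 and 149.6 in WT DAC and 379 and 385 in WT DMSO. Its response was -1.36 ± 0.05 in KO and -1.43 ± 0.05 in WT, with a difference of 0.07 ± 0.08 (SE, adjusted p = 0.557), so the KO libraries stayed below the WT libraries before and after DAC. Aspn, a small matrix proteoglycan gene, had responses of -1.81 in KO and -1.93 in WT, and Errfi1, which encodes a feedback inhibitor of the EGF receptor, of 1.35 in KO and 1.57 in WT. An uncalled difference does not show that responses were equal.

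The interferon-stimulated genes mostly rose with DAC in both genotypes, and 39 had a higher response in KO. Of 53 tested, 52 rose in KO and 42 in WT and none fell, with median responses of 1.72 in KO and 0.68 in WT. The response difference was called higher in 39 and lower in none, against 12.4% and 11.7% over all tested genes. Its median was 0.89, against 0.04 over all genes. The KO library responses lay wholly above the WT library responses in 40 of the 53, against 20.6% of all tested genes. Rtp4, which encodes a chaperone of G-protein-coupled receptors, had 63.7, 70.05 and 71.2 FPKM in KO DAC and 9.94 and 13.5 in KO DMSO, against 93.7, 88.97 and 82.6 in WT DAC and 61.6 and 61.7 in WT DMSO. Isg15 (ENSMUSG00000035692, chr4:156199424-156200818), which encodes a ubiquitin-like modifier, had 84.1, 119 and 116 FPKM in KO DAC and 18.1 and 23.1 in KO DMSO, against 185, 163 and 103 in WT DAC and 91.03 and 103 in WT DMSO. Phf11d, a PHD finger gene, had 9.15, 8.16 and 8.52 FPKM in KO DAC and 0.590 and 0.781 in KO DMSO, against 18.01, 16.9 and 16.6 in WT DAC and 8.39 and 8.74 in WT DMSO. In these 3 genes the KO DMSO libraries were the lowest, and the KO DAC libraries were several fold higher. Their response differences were 1.95 ± 0.16 (SE, adjusted p = 5.75e-05) for Rtp4, 1.72 ± 0.35 (SE, adjusted p = 0.00785) for Isg15 and 1.59 ± 0.11 (SE, adjusted p = 2.05e-05) for Phf11d.

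This list was split by starting level as well, a description that shares the DMSO libraries with the response difference. The median KO minus WT difference of the 53 genes was -0.26 in DAC and -0.99 in DMSO. Of the 26 members 2-fold or more apart in DMSO, the response difference was called in 25, of the 20 in between in 12, and of the 7 equal members in 2. The equal members called were Oas3, which encodes an RNA-sensing synthetase, and Helz2, which encodes a helicase. Oas3 had 30.2, 31.1 and 30.3 FPKM in KO DAC and 0.487 and 0.610 in KO DMSO, against 16.8, 15.3 and 16.6 in WT DAC and 0.324 and 0.304 in WT DMSO, a response of 4.35 in KO and 3.71 in WT and a difference of 0.64 ± 0.09 (SE, adjusted p = 0.00134). For Helz2 the response was 0.95 in KO and 0.60 in WT, with a difference of 0.34 ± 0.08 (SE, adjusted p = 0.0186). Members with equal DMSO levels and a shared response without a called difference included Cxcl10, a chemokine gene with 49.3, 68.2 and 67.6 FPKM in KO DAC and 13.9 and 15.9 in KO DMSO, against 87.1, 87.2 and 56.9 in WT DAC and 18.6 and 16.5 in WT DMSO, and Psmb8, an immunoproteasome gene with 3.77, 4.62 and 5.05 FPKM in KO DAC and 0.651 and 1.33 in KO DMSO, against 4.38, 4.46 and 3.88 in WT DAC and 0.822 and 0.999 in WT DMSO. In NT libraries 37 of 48 members tested were called lower in KO and 2 higher, against 40.4% and 23.7% over all genes tested there. The median of the members was -0.42. The count of members called higher was 36 to 40 when each library was left out in turn, and 39 higher and 1 lower once chromosome medians were removed.

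The promoters of 3 of these genes are printed because their responses contrast: Oas3 started equal in both genotypes, while Isg15 and Ifit3, which encodes an antiviral RNA-response protein, started more than 2-fold apart. Each spans 250 bases before to 50 bases after the RefSeq start, in GRCm38.p6, 5' to 3' on the gene's strand. Capitals mark matches on either strand to GAAA, any 2 bases and GAAA again, the core of the interferon-stimulated response element. The matches overlap in Isg15.
Isg15 (chr4:156200769-156201068, minus strand): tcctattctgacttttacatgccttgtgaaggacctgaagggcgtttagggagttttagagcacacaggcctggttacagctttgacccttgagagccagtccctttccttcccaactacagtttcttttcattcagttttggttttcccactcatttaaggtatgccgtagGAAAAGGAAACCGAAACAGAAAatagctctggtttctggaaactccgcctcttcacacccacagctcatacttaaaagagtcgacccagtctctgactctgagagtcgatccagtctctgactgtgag
Oas3 (chr5:120777610-120777909, minus strand): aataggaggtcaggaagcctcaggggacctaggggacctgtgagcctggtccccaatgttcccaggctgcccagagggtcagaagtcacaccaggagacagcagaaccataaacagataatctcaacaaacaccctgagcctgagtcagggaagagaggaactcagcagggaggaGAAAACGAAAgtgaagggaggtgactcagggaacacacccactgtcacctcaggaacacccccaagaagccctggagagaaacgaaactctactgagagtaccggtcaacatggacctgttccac
Ifit3 (chr19:34583279-34583578, plus strand): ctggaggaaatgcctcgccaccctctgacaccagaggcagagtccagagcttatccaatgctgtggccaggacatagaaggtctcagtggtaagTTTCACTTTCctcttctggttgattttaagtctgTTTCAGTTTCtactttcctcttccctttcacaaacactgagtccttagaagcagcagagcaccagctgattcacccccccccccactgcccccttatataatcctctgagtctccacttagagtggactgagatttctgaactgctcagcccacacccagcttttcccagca
The motif was matched 3 times in Isg15, 1 time in Oas3 and 2 times in Ifit3, first at -78, -75 and -156 bases from the start, and 3.44% of 32851 promoters in the table held it. Ifit3 had 54.9, 75.9 and 77.7 FPKM in KO DAC and 19.8 and 20.2 in KO DMSO, against 95.7, 90.1 and 72.5 in WT DAC and 60.8 and 72.7 in WT DMSO, with a response difference of 1.37 ± 0.24 (SE, adjusted p = 0.00347). A match of letters is a description and not a measured binding site.

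The genes that sense nucleic acids and carry the interferon signal were less uniform. Of 28 tested, 17 rose and 3 fell in KO, 15 rose and 1 fell in WT, and the response difference was called higher in 14 and lower in 3. The shares over all tested genes were 12.4% and 11.7%, so the count called lower is near its share. Usp18, which encodes a feedback inhibitor of the interferon receptor, had 56.5, 61.4 and 64.9 FPKM in KO DAC and 13.9 and 13.3 in KO DMSO, against 73.8, 71.03 and 63.01 in WT DAC and 44.2 and 44.6 in WT DMSO, with a response difference of 1.46 ± 0.11 (SE, adjusted p = 4.14e-05). Stat2, which encodes a subunit of the interferon-activated factor ISGF3, had 57.1, 60.3 and 64.3 FPKM in KO DAC and 20.8 and 24.2 in KO DMSO, against 66.9, 65.1 and 62.9 in WT DAC and 53.01 and 56.2 in WT DMSO, with a difference of 1.14 ± 0.11 (SE, adjusted p = 1.12e-04). Dhx58 and Ddx58, genes of the RIG-I family of RNA sensors, had differences of 1.14 and 1.00. The members called lower were Irf5, described above, Tmem173, which encodes the adaptor STING, and the receptor gene Ifnar1. Tmem173 had 24.1, 26.5 and 24.5 FPKM in KO DAC and 25.7 and 24.4 in KO DMSO, against 25.7, 26.9 and 27.4 in WT DAC and 14.3 and 15.1 in WT DMSO, so the rise was in WT. The receptor gene Ifnar2, the adaptor gene Mavs and the factor gene Irf3 had response differences of -0.29, -0.15 and 0.32 that were not called.

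Targets of p53, the factor that answers DNA damage, mostly rose in both genotypes. Of 37 tested, 28 rose and 4 fell in KO and 29 rose and 2 fell in WT, with median responses of 1.09 in KO and 0.58 in WT. The response difference was called higher in 20 and lower in 4, with a median of 0.47. The shares over all tested genes were 12.4% and 11.7%, so the count called lower is near its share. Of the 20, Sesn1, which encodes a stress-induced sestrin, fell in both genotypes and further in WT, with responses of -0.63 in KO and -1.05 in WT, and the other 19 rose in both and further in KO. Cdkn1a (chr17:29090979-29100722), which encodes the cell-cycle inhibitor p21, had 64.9, 75.3 and 71.3 FPKM in KO DAC and 9.76 and 9.39 in KO DMSO, against 109, 112 and 82.7 in WT DAC and 41.9 and 47.7 in WT DMSO, with a response difference of 1.61 ± 0.18 (SE, adjusted p = 3.31e-04). Cd80, a co-stimulatory ligand gene, had 14.3, 15.1 and 14.1 FPKM in KO DAC and 0.727 and 1.10 in KO DMSO, against 15.7, 18.1 and 18.5 in WT DAC and 5.60 and 4.97 in WT DMSO. KO DMSO was the lowest group in both, and the KO DAC libraries stayed below the WT DAC libraries. Mdm2, which encodes the ligase that degrades p53, rose by 1.76 in KO and 1.35 in WT, a difference of 0.41 ± 0.11 (SE, adjusted p = 0.0237). Bax, which encodes a pore-forming death protein, was not called, at 0.97. The 4 called lower were Gadd45a, Btg2, Pmaip1 and Ddb2. Gadd45a, a stress gene, had 7.66, 9.11 and 9.37 FPKM in KO DAC and 17.7 and 16.2 in KO DMSO, against 5.82, 6.19 and 4.16 in WT DAC and 2.96 and 3.69 in WT DMSO, and Btg2, an anti-proliferative gene, had 22.3, 26.2 and 27.4 FPKM in KO DAC and 65.9 and 59.5 in KO DMSO, against 43.9, 42 and 36.8 in WT DAC and 40.2 and 46.4 in WT DMSO. Of the 12 members 2-fold or more apart in DMSO, 9 were called higher and 1 lower, and none of the 5 equal members was called. This split shares the DMSO libraries with the response difference and is a description. In NT libraries 19 of 35 were called lower in KO and 6 higher, against 40.4% and 23.7% over all genes tested there.

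Of 30 genes of G2 and mitosis, 24 rose and 1 fell in KO and 8 rose in WT, and the response difference was called higher in 11 and lower in none, with a median of 0.32. Plk1, which encodes a mitotic kinase, had 41.1, 48.3 and 46.4 FPKM in KO DAC and 21.9 and 20.3 in KO DMSO, against 40.4, 41.5 and 36.7 in WT DAC and 31.7 and 30 in WT DMSO, with a difference of 0.72 ± 0.12 (SE, adjusted p = 0.00245). The count of members called higher was 7 without KO DMSO replicate 1, and 18 with both libraries that stood apart left out. Of 32 S phase genes 4 were called higher and 1 lower, against 12.4% and 11.7% over all tested genes, so the count called higher is near the share over all genes. Ccne1, which encodes cyclin E1, had 16.04, 18.3 and 17.8 FPKM in KO DAC and 4.71 and 5.24 in KO DMSO, against 14.4, 13.3 and 13.5 in WT DAC and 9.96 and 11.1 in WT DMSO, with a difference of 1.26 ± 0.11 (SE, adjusted p = 7.77e-05), and Rrm2, which encodes the small subunit of ribonucleotide reductase, had 41.5, 45.7 and 41.2 FPKM in KO DAC and 14.4 and 14.7 in KO DMSO, against 42.2, 41.7 and 37.8 in WT DAC and 22.7 and 22.8 in WT DMSO, with a difference of 0.68 ± 0.09 (SE, adjusted p = 8.79e-04). The Mcm genes of the replicative helicase were not called, with differences between -0.16 for Mcm2 and 0.08 for Mcm4.

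Few germline genes reached the filter. Of a list of 36 that promoter methylation silences, 8 were tested. In 7 of these both DMSO groups averaged under 1 FPKM, so they passed through their DAC libraries, and Xlr3b was the exception. Dazl, which encodes an RNA-binding protein of germ cells, had 2.74, 2.502 and 2.27 FPKM in KO DAC and 0.0247 and 0.0438 in KO DMSO, against 0.294, 0.201 and 0.467 in WT DAC and 0 and 0 in WT DMSO. Rhox5, a reproductive homeobox gene, had 9.32, 12.6 and 13.8 FPKM in KO DAC and 0 and 0.0855 in KO DMSO, against 6.07, 8.26 and 5.30 in WT DAC and 0.259 and 0.337 in WT DMSO, Tuba3b, a testis tubulin gene, had 4.77, 4.78 and 5.46 FPKM in KO DAC and 0.123 and 0 in KO DMSO, against 2.33, 1.91 and 1.48 in WT DAC and 0 and 0.0716 in WT DMSO, and Tex13b, another testis gene, had 4.45, 4.87 and 4.24 FPKM in KO DAC and 0 and 0.0230 in KO DMSO, against 2.26, 1.88 and 1.78 in WT DAC and 0 and 0 in WT DMSO. In each of these 4 genes all KO DAC libraries were above all WT DAC libraries, and the DMSO libraries were at or near 0. On log2(FPKM + 1) the response difference was called higher in 6 of the 8. Without KO DMSO replicate 1, or without WT DMSO replicate 2, it was called in 3. That call is one of absolute level more than of ratio. With limma-voom on recovered reads, which compares ratios, 1 of the 8 was called, and the estimate for Dazl was 0.18 (adjusted p = 0.945). Across all tested genes, 850 had a mean under 1 FPKM in both DMSO groups, and no count over them is read as a result for the same reason.

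Genes of DNA methylation, H3K9 methylation and H2A.Z exchange were set against the 12.4% called higher and 11.7% lower over all tested genes. In DNA methylation 2 of 19 were called higher and 2 lower, in H3K9 silencing 1 of 25 higher and none lower, and in H2A.Z deposition and removal none of 24 higher and 1 lower. The DNA methylation counts are near the shares over all genes. Dnmt1, which encodes the methyltransferase that decitabine traps, had 50.4, 61.1 and 60.9 FPKM in KO DAC and 48.8 and 52.9 in KO DMSO, against 61.1, 59.04 and 48.9 in WT DAC and 58.8 and 60.8 in WT DMSO, and its difference of 0.26 ± 0.16 (SE, adjusted p = 0.289) was not called. Dnmt3a, which encodes a de novo methyltransferase, fell in both genotypes, with responses of -0.87 in KO and -0.56 in WT, with no call of the difference. Tet3, which encodes an enzyme that oxidises methylcytosine, fell further in KO, with 10.7, 10.7 and 11.96 FPKM in KO DAC and 23.3 and 23.6 in KO DMSO, against 11.8, 11.3 and 11.4 in WT DAC and 16.1 and 16.9 in WT DMSO and a difference of -0.53 ± 0.08 (SE, adjusted p = 0.00227). Suv39h1, which encodes an H3K9 methyltransferase, rose further in KO, with 15.9, 15.2 and 14.8 FPKM in KO DAC and 8.20 and 7.51 in KO DMSO, against 10.5, 10.3 and 9.85 in WT DAC and 8.04 and 8.03 in WT DMSO and a difference of 0.57 ± 0.08 (SE, adjusted p = 0.00136). Trim28, which encodes the corepressor KAP1, had a difference of 0.38 ± 0.15 (SE, adjusted p = 0.105). Among H2A.Z genes, Srcap and Ep400, which encode the exchange ATPases, had differences of 0.13 and 0.01. The called member, Mbtd1, at -0.44, was not called in 8 of the 10 settings that left out 1 library.

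Of 22 imprinted genes, 7 were called higher and 6 lower, against 12.4% and 11.7% over all tested genes. Cdkn1c, which encodes the cell-cycle inhibitor p57, had 12.3, 10.3 and 9.18 FPKM in KO DAC and 2.67 and 3.04 in KO DMSO, against 2.75, 2.63 and 4.07 in WT DAC and 2.97 and 4.54 in WT DMSO. It was KO-limited, and the difference was 1.77 ± 0.27 (SE, adjusted p = 0.00174). Peg10, a paternally expressed gene of retroviral origin, fell in both and further in WT, with 12.98, 10.4 and 9.90 FPKM in KO DAC and 15.5 and 14.3 in KO DMSO, against 16.3, 16.5 and 21.6 in WT DAC and 61.1 and 62.5 in WT DMSO. Nnat, which encodes a small membrane protein of neural tissue, was KO-limited, with 4.29, 4.83 and 5.08 FPKM in KO DAC and 18.7 and 23.7 in KO DMSO, against 4.66, 4.08 and 4.35 in WT DAC and 4.28 and 3.65 in WT DMSO, and Peg3, a paternally expressed zinc finger gene, was too, with 1.18, 1.26 and 1.07 FPKM in KO DAC and 7.005 and 6.65 in KO DMSO, against 0.153, 0.115 and 0.169 in WT DAC and 0.176 and 0.186 in WT DMSO. Dlk1, which encodes a Notch-like ligand, was WT-limited, with 2.65, 3.58 and 3.92 FPKM in KO DAC and 2.48 and 2.75 in KO DMSO, against 0.382, 0.564 and 0.441 in WT DAC and 1.44 and 1.47 in WT DMSO. H19, a maternally expressed noncoding RNA, fell in both and further in KO, from the highest level in KO DMSO libraries, with 64.1, 73.3 and 87.9 FPKM in KO DAC and 333 and 323 in KO DMSO, against 13.4, 14.3 and 20.5 in WT DAC and 28.4 and 33.2 in WT DMSO. Mest fell in both genotypes with no call of the difference, and its responses were -2.39 in KO and -1.91 in WT.

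Matrix genes mostly fell in both genotypes. Of 31 genes of collagen and matrix, 18 fell and 7 rose in KO and 21 fell and 5 rose in WT, with median responses of -0.54 and -0.55, and the response difference was called higher in 8 and lower in 9. Col1a1, the collagen I gene, had responses of -0.93 ± 0.10 in KO and -1.15 ± 0.10 in WT. Postn, which encodes periostin, had responses of -1.60 in KO and -1.64 in WT. Neither difference was called. Col5a2, a collagen V gene, had 47.1, 43.7 and 42.4 FPKM in KO DAC and 40.7 and 39.1 in KO DMSO, against 88.8, 88.6 and 98.2 in WT DAC and 139.5 and 139 in WT DMSO, a fall in WT with no call in KO. Dcn, which encodes the proteoglycan decorin, fell further in KO from a high start, with 25.05, 26.9 and 27.1 FPKM in KO DAC and 161 and 156 in KO DMSO, against 5.16, 6.95 and 7.74 in WT DAC and 9.54 and 10.99 in WT DMSO. Ccn2, a matricellular gene induced by YAP, moved in opposite directions, with 26.5, 26.01 and 24.6 FPKM in KO DAC and 45.1 and 44.2 in KO DMSO, against 27.9, 28.7 and 23.6 in WT DAC and 10.9 and 8.16 in WT DMSO and a difference of -2.18 ± 0.16 (SE, adjusted p = 3.62e-05). Among 28 genes of elastic fibres and basement membrane, 12 were called higher and 8 lower. For both matrix lists the shares over all tested genes were 12.4% higher and 11.7% lower. Eln, the elastin gene, had 0.416, 0.458 and 0.860 FPKM in KO DAC and 19.8 and 19.8 in KO DMSO, against 0.885, 0.720 and 0.834 in WT DAC and 4.01 and 5.29 in WT DMSO, with a difference of -2.10 ± 0.20 (SE, adjusted p = 1.17e-04), and Ltbp1, which encodes a binding protein of latent TGF-beta, rose in KO, with 56.3, 55.9 and 57.98 FPKM in KO DAC and 26.7 and 27 in KO DMSO, against 54.97, 52.6 and 48.2 in WT DAC and 49.6 and 47.9 in WT DMSO.

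Of 17 contractile genes tested, the response difference was called higher in 5 and lower in 2. The shares over all tested genes were 12.4% and 11.7%, so the count called lower is near its share. Acta2, which encodes smooth muscle actin, had 132, 162 and 152 FPKM in KO DAC and 37.3 and 38.8 in KO DMSO, against 264, 268 and 184 in WT DAC and 217 and 173 in WT DMSO, and Myl9, which encodes a myosin light chain, had 79.4, 86.3 and 88.7 FPKM in KO DAC and 24.6 and 27.4 in KO DMSO, against 121, 122 and 102 in WT DAC and 105 and 102 in WT DMSO. Both were lowest in KO DMSO libraries, and their differences were 1.66 ± 0.24 (SE, adjusted p = 0.00144) for Acta2 and 1.52 ± 0.12 (SE, adjusted p = 5.46e-05) for Myl9. The members called lower were Smtn and Des, a muscle intermediate filament gene, at -0.80 and -1.51. Tagln, which encodes transgelin, was not called, at 0.11.

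Secreted inflammatory genes ran the other way. Of 22 tested, 12 rose and 7 fell in KO and 17 rose and 1 fell in WT, with median responses of 0.68 in KO and 1.25 in WT. The response difference was called lower in 11 and higher in 1, against 11.7% and 12.4% over all tested genes, with a median of -0.56. Saa3, an acute phase gene, had 0, 0.362 and 0.408 FPKM in KO DAC and 10.9 and 14.1 in KO DMSO, against 0.349, 0.445 and 0.235 in WT DAC and 0.123 and 0 in WT DMSO. It reached 1 FPKM only in KO DMSO libraries and so passed the filter through the group where it was high. Its lower call is among the 11 and is not read as a result. Ccl2, which encodes a monocyte chemokine, had 39.2, 44.5 and 42.4 FPKM in KO DAC and 55.7 and 50.6 in KO DMSO, against 51.5, 50.5 and 50.4 in WT DAC and 9.94 and 8.46 in WT DMSO, with a difference of -2.68 ± 0.11 (SE, adjusted p = 2.03e-06). Lif, which encodes a cytokine of the interleukin 6 family, was WT-limited, with 3.29, 4.09 and 3.59 FPKM in KO DAC and 3.74 and 3.34 in KO DMSO, against 5.28, 4.82 and 4.06 in WT DAC and 0.877 and 0.511 in WT DMSO. The DAC libraries of the genotypes overlapped or lay close for Saa3, Ccl2 and Lif, and it was the DMSO libraries that were apart. The gene called higher was Cxcl12, which encodes a chemokine of stromal cells, with 35.9, 39.9 and 42.4 FPKM in KO DAC and 66.9 and 67.2 in KO DMSO, against 46.3, 49.5 and 47.1 in WT DAC and 145 and 167 in WT DMSO. Ccl5, Ptgs2 and Mmp3 rose in both genotypes, and their differences of 0.29, -0.30 and -0.11 were not called.

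Of 24 immediate early genes, 10 were called lower and 4 higher, against 11.7% and 12.4% over all tested genes. Atf3, which encodes a stress-induced transcription factor, had 7.48, 9.55 and 8.29 FPKM in KO DAC and 14.1 and 11.7 in KO DMSO, against 10.5, 11 and 9.65 in WT DAC and 3.93 and 3.86 in WT DMSO, falling in KO and rising in WT. Fos started equal, and fell further in KO, with 19.3, 27.5 and 25.1 FPKM in KO DAC and 139 and 121 in KO DMSO, against 44.6, 55.7 and 39.8 in WT DAC and 97.6 and 142 in WT DMSO and a difference of -1.07 ± 0.29 (SE, adjusted p = 0.0276). Fosl1, a relative of Fos, rose in both by 2.63 in KO and 2.26 in WT, with no call of the difference.

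Cholesterol synthesis genes mostly started lower in KO DMSO than in WT DMSO libraries. Of 24 tested, 11 rose and 2 fell in KO and 2 rose and 4 fell in WT, with median responses of 0.34 and -0.08. Over all tested genes 23.7% rose and 21.6% fell in KO, and 14.5% rose and 13.8% fell in WT. The WT counts are thus near their shares. The response difference was called higher in 13 and lower in none, against 12.4% and 11.7% over all tested genes, with a median of 0.48. Fdps, which encodes farnesyl diphosphate synthase, had 43.2, 49.7 and 46.2 FPKM in KO DAC and 25.1 and 28.3 in KO DMSO, against 78.2, 80.3 and 56.3 in WT DAC and 82.2 and 67.5 in WT DMSO, with a difference of 0.85 ± 0.22 (SE, adjusted p = 0.0233). Srebf2, which encodes a transcription factor of the pathway, had a difference of -0.18 ± 0.10 (SE, adjusted p = 0.231), which was not called. The median KO minus WT difference of the list was -0.34 in DAC and -0.77 in DMSO. Without WT DMSO replicate 1, and with chromosome medians removed, 8 members were called.

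Glycolysis and hypoxia genes showed the reverse. Of 27 tested, 8 rose and 7 fell in KO and 19 rose and 1 fell in WT. Over all tested genes 23.7% rose and 21.6% fell in KO, and 14.5% rose and 13.8% fell in WT. The KO counts are thus near their shares. Median responses were 0.02 in KO and 0.50 in WT. The response difference was called lower in 12 and higher in none, against 11.7% and 12.4% over all tested genes. Eno1, which encodes the glycolytic enzyme enolase, had 219, 221 and 214 FPKM in KO DAC and 156 and 166 in KO DMSO, against 150.4, 145 and 143 in WT DAC and 83.03 and 63.6 in WT DMSO, with a difference of -0.56 ± 0.14 (SE, adjusted p = 0.0185). Egln3, which encodes a prolyl hydroxylase of hypoxia-inducible factors, had 6.14, 5.96 and 5.46 FPKM in KO DAC and 8.84 and 9.23 in KO DMSO, against 1.56, 1.40 and 1.79 in WT DAC and 0.416 and 0.549 in WT DMSO, with a difference of -1.35 ± 0.13 (SE, adjusted p = 1.26e-04). Vegfa, the gene of the vascular growth factor, had 17.9, 19.9 and 20.5 FPKM in KO DAC and 23.2 and 25.1 in KO DMSO, against 16.5, 15.5 and 12.03 in WT DAC and 10.9 and 10.6 in WT DMSO. In these genes KO DMSO libraries were above WT DMSO libraries, and over the list the median difference was 0.34 in DAC and 0.82 in DMSO. Ldha, which encodes lactate dehydrogenase, started equal and rose by 0.82 in KO and 0.72 in WT, with a difference of 0.10 that was not called. With both libraries that stood apart left out, 18 members were called lower and 1 higher. Genes of the unfolded protein and amino acid stress responses had 3 of 25 called higher and 4 lower, counts near the 12.4% and 11.7% over all tested genes, among them Ddit3, which encodes the stress factor CHOP, at 0.61 ± 0.11 (SE, adjusted p = 0.00423), and Asns, which encodes asparagine synthetase, at -0.74 ± 0.14 (SE, adjusted p = 0.00607).

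**Figure D3:**
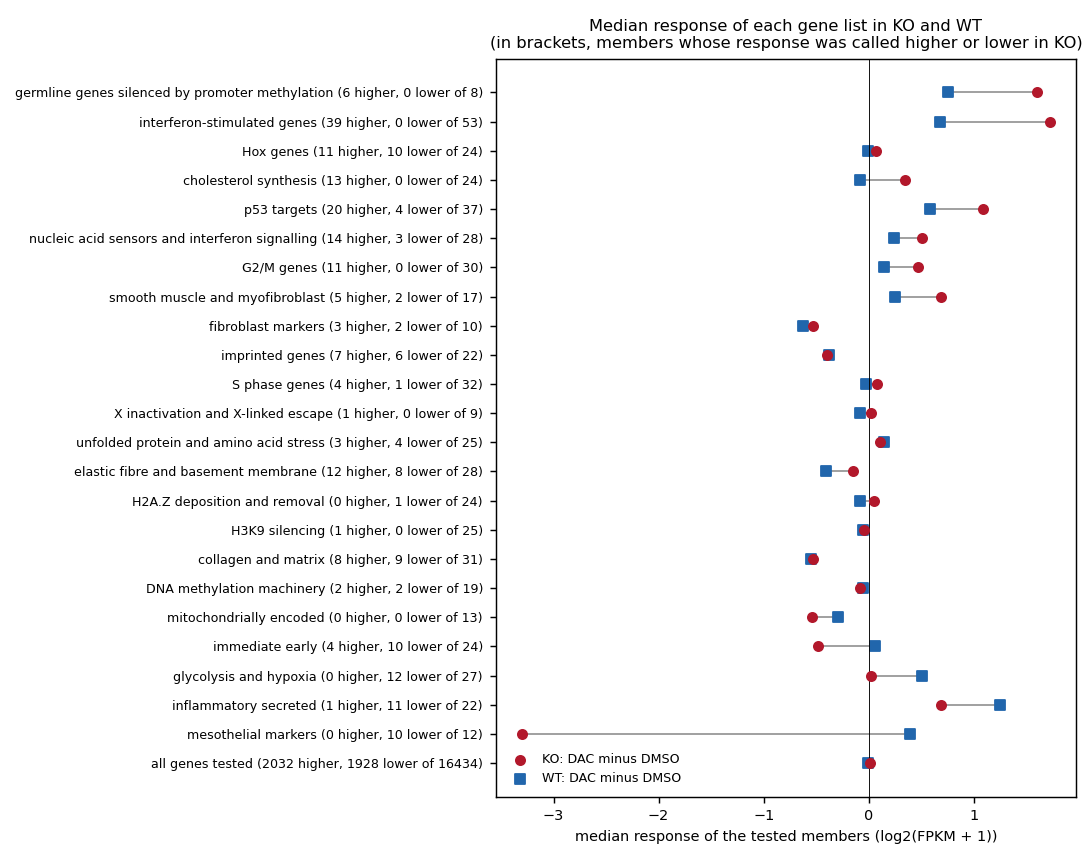
Median response to DAC per gene list with at least 8 tested members, in log2(FPKM + 1), with circles for KO and squares for WT; the brackets give how many members had a response difference called higher and lower. The interferon list lies at 1.72 in KO and 0.68 in WT, the cholesterol list at 0.34 and -0.08, the glycolysis and hypoxia list at 0.02 and 0.50, and the mesothelial markers at -3.30 and 0.39.

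**Figure D4:**
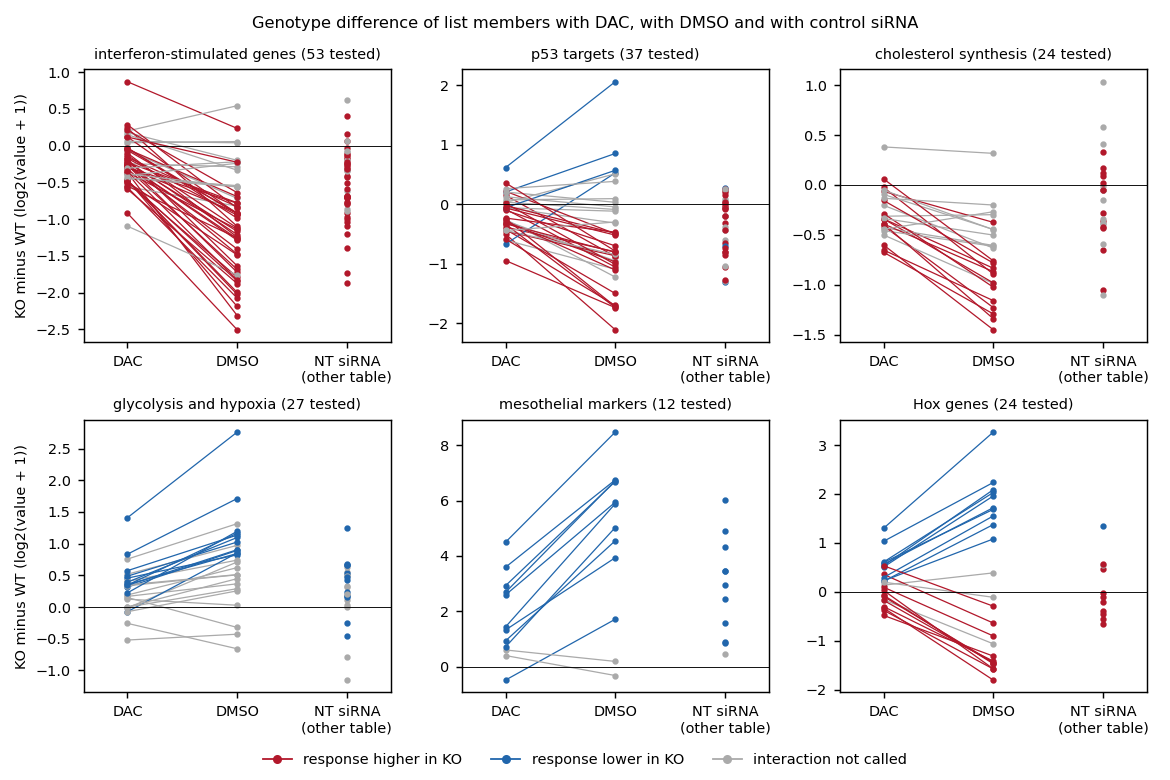
KO minus WT level of each member of 6 gene lists in DAC, in DMSO and in NT siRNA libraries, in log2(FPKM + 1) or log2(RPKM + 1), with lines joining DAC and DMSO; red marks members whose response difference was called higher, blue lower and grey not called. For the interferon, p53 and cholesterol lists the DAC column has list medians of -0.26, -0.10 and -0.34, and the DMSO column lies lower, with medians of -0.99, -0.79 and -0.77.

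The Hox genes, which keep a record of position along the body axis, split by cluster. Of 24 tested of 52, the response difference was called higher in 11, all of the HoxA and HoxD clusters, and lower in 10, all of the HoxB and HoxC clusters. The shares over all tested genes were 12.4% and 11.7%. Hoxa10 had 5.06, 5.56 and 5.14 FPKM in KO DAC and 2.99 and 2.88 in KO DMSO, against 6.57, 8.02 and 6.07 in WT DAC and 12.8 and 12.7 in WT DMSO, with a difference of 1.47 ± 0.14 (SE, adjusted p = 1.26e-04), and Hoxd13 had 63.2, 55.4 and 54.8 FPKM in KO DAC and 43.96 and 40.7 in KO DMSO, against 69.4, 73.6 and 82.97 in WT DAC and 129 and 128 in WT DMSO, rising by 0.44 in KO and falling in WT, with a WT response of -0.76. HoxA and HoxD members called higher were lower in KO DMSO than in WT DMSO libraries. Hoxb9 had 2.97, 2.92 and 2.81 FPKM in KO DAC and 11.3 and 10.8 in KO DMSO, against 0.588, 0.608 and 0.558 in WT DAC and 0.241 and 0.259 in WT DMSO, with a difference of -1.97 ± 0.10 (SE, adjusted p = 6.04e-06), and Hoxc9 had 0.402, 0.527 and 0.424 FPKM in KO DAC and 3.35 and 3.16 in KO DMSO, against 0, 0 and 0 in WT DAC and 0 and 0 in WT DMSO. The HoxB and HoxC members called lower were under 1 FPKM in all WT libraries, so they passed the filter through KO libraries alone. Hoxc9 passed through KO DMSO libraries only, the group where it was high. The count called lower is thus in part set by the filter and is not read as a result. Without KO DMSO replicate 1 the count called lower was 2, and with limma-voom 3, while 12 were called higher in both of these settings. That the HoxA and HoxD members go up and the HoxB and HoxC members down was seen after their values were known.

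Xist, the noncoding RNA that silences 1 X chromosome in female cells, had 44.4, 28.9 and 28.5 FPKM in KO DAC and 0.923 and 0.579 in KO DMSO, against 136, 139.6 and 210.1 in WT DAC and 169.7 and 181 in WT DMSO. Its response difference was 4.44 ± 0.33 (SE, adjusted p = 3.51e-05), the largest positive one among the named genes, and came from a rise in KO of 4.29, while the WT response of -0.14 was not called. The Y-linked genes Eif2s3y, Ddx3y, Uty and Kdm5d rose in KO, with response differences of 0.92, 0.62, 0.55 and 0.52 on log2(FPKM + 1), and none of them was called with limma-voom. Leaving out either KO DMSO library, either WT DMSO library or WT DAC replicate 2 left 2 calls. KO DAC libraries thus held both Xist and Y-linked RNA, and in bulk RNA it cannot be told apart whether 1 or several kinds of cells carry them.

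Gene position went with the response difference. The median response difference was 0.31 over 679 genes of chromosome 10, 0.26 over 495 genes of chromosome 13, 0.21 over 480 of chromosome 12, 0.19 over 992 of chromosome 7 and 0.18 over 729 of chromosome 3. At the other end chromosome 19 had -0.10 over 490 genes. On chromosome 10 the response difference was called higher in 29.7% of genes and lower in 5.89%, against 12.4% and 11.7% overall. All 7 windows of 20 Mb along chromosome 10 had medians between 0.27 and 0.34. The library medians of chromosome 10, relative to all libraries, were -0.02 to 0.00 in KO DAC and -0.24 and -0.25 in KO DMSO, against 0.08 to 0.09 in WT DAC and 0.13 in both WT DMSO libraries. The spread of the 19 autosome medians, as an SD, was 0.12 for the KO response and 0.03 for the WT response. With each library centred on the median of each chromosome, 1770 genes were called higher and 1763 lower, of which 1532 and 1653 were among the calls without centring. The cause of these chromosome-wide shifts was not tested.

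**Figure D5:**
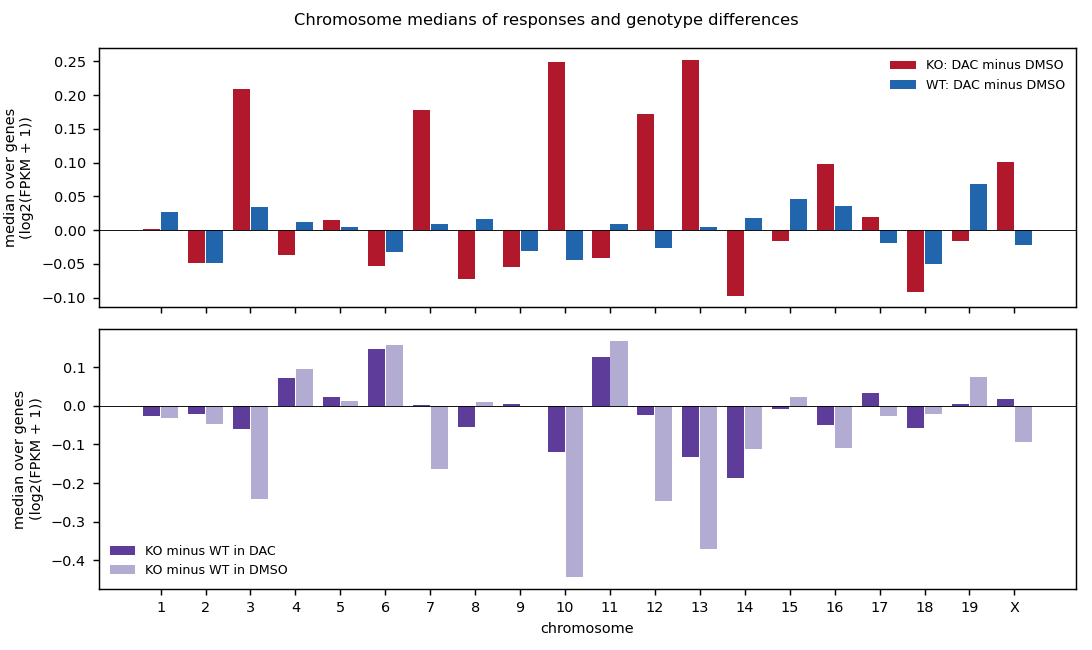
Median over the tested genes of each chromosome, in log2(FPKM + 1): KO and WT response to DAC in the upper panel, and KO minus WT in DAC and in DMSO in the lower panel. Among autosomes the KO response is highest on chromosomes 10 and 13, at 0.25 on both, where KO minus WT in DMSO is lowest, at -0.44 and -0.37, and the WT response stays between -0.05 and 0.07 on the autosomes.

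Markers of other cell types were mostly at low levels. Summed FPKM of 6 endothelial markers was 2.61 to 3.15 in KO DAC and 4.63 to 5.36 in KO DMSO, against 4.74 to 5.15 in WT DAC and 7.32 to 7.59 in WT DMSO libraries. For 6 macrophage markers the sum was 12.03 to 12.8 in KO DAC and 9.08 to 10.9 in KO DMSO, against 10.01 to 13.05 in WT DAC and 10.3 to 13.5 in WT DMSO libraries. For 5 epithelial markers it was 1.62 to 1.76 in KO DAC and 5.84 to 6.42 in KO DMSO, and at most 0.310 in the WT libraries. The tested members called were Csf1r, the macrophage growth factor receptor gene, Cdh1 and Krt14 of epithelium and Des of muscle, all lower, and the neural genes Tubb3 and Map2, both higher, at -1.09, -1.27, -0.84, -1.51, 0.80 and 1.42. Csf1r, Cdh1 and Krt14 reached 1 FPKM only in KO DMSO libraries. They passed the filter through the group where they were high, so their lower calls are not read as a result. Among 10 fibroblast markers 3 were called higher and 2 lower, and of 13 mitochondrially encoded genes and 9 X-linked genes none was called apart from Xist. The shares over all tested genes were 12.4% higher and 11.7% lower. The part of these cell types in the results was not tested.

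Between DAC-treated cells the genotypes were closer than between DMSO-treated cells. KO against WT in DAC, 11.1% of genes were called higher and 11.6% lower, and in DMSO 19.6% higher and 22.9% lower. These 2 comparisons have different numbers of libraries, 6 and 4.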

How the data were processed

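The authors deposited FPKM values per gene for 10 decitabine and DMSO libraries and RPKM values for 12 siRNA libraries, of which 6 non-targeting ones were used. Per the labels' protocols the libraries were made with a stranded total RNA kit. Per the submitters' processing notes, STAR, Bowtie2 and deepTools and the mm10 build were used. Neither the read counter nor the annotation, strand setting or scaling total is given in the sources used here, so reads of near-identical copies, of overlapping genes and of antisense pairs may be shared. All 30078 entries above 0 in the FPKM table were whole reads within 0.01 once the step of 1 read was found, so whole reads were recovered, and limma-voom on them called 2063 genes higher and 1910 lower.

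Genes with at least 1 FPKM in at least 2 libraries (1 RPKM in 3 libraries for the siRNA table) were tested with limma 3.58.1 in R 4.3.3 on log2(value + 1), with 4 groups in 1 fit, a mean-variance trend and Benjamini-Hochberg adjustment over all genes tested. A fold change on this scale understates the change of low genes. Adjusted p-values in the text come from this fit unless another tool is named, and errors after ± are standard errors. The method was tested on simulated data. Members and gene lists were chosen with earlier results of these data known. Genes were named by class, direction and DMSO level, among those with at least 5 FPKM in the highest group. They were the 3 with the largest response difference and no overlap of library responses. For shared genes with no call of the response difference, the smaller of the KO and WT responses was ranked instead. The 3 largest were named, without the condition on overlap. By list, up to 2 called members in each direction were named. The other list members given with values were chosen after their values were seen, and some genes that the rule names are not reported here. Positions came from RefSeq on GRCm38.p6 for 14410 genes (87.7%), and its promoter table matched 60.5% of the tested genes, so a comparison of promoters between classes was void.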

Additional observations from a re-analysis of the deposited data

Results flagged for a closer look

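The response to DAC differed between KO and WT by the test of the difference itself in 2032 genes with a higher and 1928 with a lower response difference. Among the genes named, those with calls in opposite directions stand out. With DMSO levels 2-fold or more apart, the response difference was -4.83 for C3, -4.09 for H2-Q6 and -4.03 for Podxl, which fell in KO and rose in WT. It was 2.63 for Penk, 2.35 for Aqp1 and 2.33 for Npnt, which rose in KO and fell in WT. With equal DMSO levels it was -1.66 for Bhlhe22, -1.27 for Sfrp1 and -0.77 for Cx3cl1, and 0.71 for Igf2bp3 and 0.40 for Tead2. All of these passed an adjusted p of 0.05 with limma.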

How the results depend on the processing

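Leaving out each library in turn, the response difference was called higher in 1232 to 2035 and lower in 1044 to 1991 genes. Shared responses numbered 1550 to 2901 (equal DMSO 593 to 1319), KO-limited 994 to 1974 (2-fold apart 399 to 840, equal 78 to 272), WT-limited 325 to 710 (129 to 232, equal 22 to 70) and opposite 245 to 486 (172 to 282, equal 4 to 11). The lowest counts came without a DMSO library, where the spread of the lone partner was taken from the other groups. At an adjusted p under 0.01 there were 1032 higher, 1233 lower, 1547 shared (equal 646), 1298 KO-limited (equal 74), 369 WT-limited (equal 19) and 205 opposite (equal 4, 2-fold apart 150). With at least 2-fold as well there were 370 higher, 796 lower, 259 shared (equal 88, 2-fold apart 38), 741 KO-limited (equal 16), 141 WT-limited (equal 3, 2-fold apart 128) and 12 opposite (equal 0, 2-fold apart 11). With equal DMSO taken as under 1.5-fold there were 2099 shared, 736 KO-limited, 247 WT-limited and 70 opposite. Split by NT levels, the equal genes held 572 KO-limited, 212 WT-limited and 161 opposite, and those 2-fold apart 132, 32 and 51. With a filter at 5 FPKM, 371 KO-limited and 124 WT-limited genes were 2-fold apart, and with no filter 116 WT-limited genes were equal. Shared genes 2-fold apart numbered 528 with limma-voom, 533 with median-ratio totals (chosen after seeing the data, as was chromosome centring) and 421 with a pseudocount of 0.1, and limma-voom gave 17 opposite equal genes. Without both libraries that stood apart, equal genes held 121 WT-limited and 25 opposite. The deviations from the group mean correlated at -0.225 to 0.126 between same-numbered libraries of different groups, so the numbers were not taken as pairs. With the replicate block 1616 genes were higher and 1651 lower, with 6 opposite equal genes. The cause of these shifts was not tested. Of the named genes' results, 2592 kept direction and call, 144 lost the call, 5 gained it and none reversed. In a gene of 1 kb, 1 read was worth 0.0271 to 0.0364 FPKM.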
